A study of Homo sapiens with 10 samples.

Results

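The epithelial splicing regulators ESRP1 and ESRP2 were examined in PC3 prostate cancer cells together with 6 genes known for transcripts that ESRP proteins regulate: CD44, ENAH, CTNND1, FGFR2, SLK and LSR. The 8 genes were chosen by name. They account for 8 of 23170 gene entries and for 39 of 37557 isoform entries. RNA-seq covered 10 samples in 4 lines. PC3-Epi (2 samples) is an epithelial subpopulation of the PC3 cell line. PC3-EMT14 (3 samples) is 1 mesenchymal line isolated from PC3-Epi cells grown beside macrophages. The mesenchymal line was transduced with a lentivirus for OVOL1 (PC3-EMT14-OVOL1, 3 samples) or for OVOL2 (PC3-EMT14-OVOL2, 2 samples), zinc-finger transcription factors, so both overexpressing lines share its history. No empty-vector line is among the samples. Differences from PC3-EMT14 that come with transduction and selection therefore cannot be told apart from those that come with OVOL1 or OVOL2. The paper describes separate lentiviral constructs for the 2 factors, with a V5 tag on OVOL2. Between the OVOL lines, construct and factor therefore cannot be told apart either. The authors' tables hold 1 pooled value per line, in FPKM (fragments scaled by transcript length and library size). No spread between samples could be computed, no test was made, and every value below is a description of these pooled libraries.

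ESRP1 and ESRP2 are RNA-binding proteins of epithelial cells. They bind UGG-rich RNA beside alternative exons and shift the choice of exon, so that epithelial and mesenchymal cells make different proteins from the same gene. CD44 is a hyaluronan receptor whose variable exons are included in epithelial cells and skipped in the standard form. ENAH (MENA) is an actin regulator with a small epithelial cassette exon. CTNND1 encodes p120 catenin, which binds the tail of E-cadherin and is made in longer forms in mesenchymal cells and shorter forms in epithelial cells. FGFR2 has mutually exclusive exons that set its ligand preference, SLK is a kinase with a regulated cassette exon, and LSR is a lipoprotein receptor that also sits at tricellular junctions.

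The exons behind the CD44 and ENAH forms are shown because the results turn on them. They were read from GRCh37, the assembly that hg19 corresponds to, as GENCODE release 44 annotates them there. All lie inside the locus that the tables list for the gene. Capitals mark the exon and lower case marks 30 intronic bases on either side, written 5′ to 3′ on the strand of the gene. The cassette exon of ENAH is on the minus strand, at chr1:225692693-225692755. It is a coding exon of 63 bases, present in a form of 591 codons and absent from a form of 570 codons, a difference of 21 codons.
ENAH cassette exon: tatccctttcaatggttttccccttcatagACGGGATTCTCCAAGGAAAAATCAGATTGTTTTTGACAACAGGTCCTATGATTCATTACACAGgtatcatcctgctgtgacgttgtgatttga
The 3 variable exons of CD44 below are on the plus strand. Exon v8 is at chr11:35229652-35229753 (102 bases), v9 at chr11:35231512-35231601 (90 bases) and v10 at chr11:35232793-35232996 (204 bases). They are coding exons that together add 132 codons, present in a form of 493 codons and absent from the 361-codon standard form. A still longer form of 699 codons carries 5 further variable exons.
CD44 v8: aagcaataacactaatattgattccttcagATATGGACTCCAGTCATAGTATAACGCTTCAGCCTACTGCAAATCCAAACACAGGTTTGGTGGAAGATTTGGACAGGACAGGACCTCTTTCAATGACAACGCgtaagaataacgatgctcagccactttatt
CD44 v9: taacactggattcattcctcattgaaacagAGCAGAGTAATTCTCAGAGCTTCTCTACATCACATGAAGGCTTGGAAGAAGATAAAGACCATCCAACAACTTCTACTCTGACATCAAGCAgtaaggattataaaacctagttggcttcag
CD44 v10: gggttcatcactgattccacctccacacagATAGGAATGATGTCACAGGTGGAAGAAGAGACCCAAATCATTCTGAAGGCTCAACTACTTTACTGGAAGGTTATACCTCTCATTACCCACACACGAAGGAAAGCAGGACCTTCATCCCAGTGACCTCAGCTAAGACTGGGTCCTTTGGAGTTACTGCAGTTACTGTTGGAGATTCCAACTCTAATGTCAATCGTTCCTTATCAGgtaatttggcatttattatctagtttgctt
The motif TGGTGG was searched on the strand of the gene in the 250 intronic bases on each side of these exons, overlapping matches counted. It was found 2 times downstream of v8 and 3 times downstream of v9. Exon v8 itself held 1 match. The downstream bases of v10 and of the ENAH exon held none. Among the upstream bases of the 4 exons, a match was found only before v10, where there was 1. Of 189562 annotated internal exons of protein-coding transcripts, 12.3% held the motif in the same downstream window and 10.7% in the upstream one. A match is a description of the sequence and not a binding site. The other motif searched, GGTGGG, was found 1 time upstream of v10 and in none of the other flanks of these 4 exons, against 16.5% of downstream and 14.5% of upstream windows. The windows after v8 (chr11:35229754-35230003) and after v9 (chr11:35231602-35231851) are given with TGGTGG in capitals.
downstream of v8: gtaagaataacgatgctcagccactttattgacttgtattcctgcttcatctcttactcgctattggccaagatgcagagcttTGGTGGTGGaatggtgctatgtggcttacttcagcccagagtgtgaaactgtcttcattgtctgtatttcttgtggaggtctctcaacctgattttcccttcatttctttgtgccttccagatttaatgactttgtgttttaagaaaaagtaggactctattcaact
downstream of v9: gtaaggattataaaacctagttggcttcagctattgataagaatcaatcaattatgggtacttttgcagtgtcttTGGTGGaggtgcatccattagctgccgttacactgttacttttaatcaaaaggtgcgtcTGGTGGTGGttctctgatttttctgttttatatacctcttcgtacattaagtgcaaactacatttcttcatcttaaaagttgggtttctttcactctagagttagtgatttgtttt

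The lines carried the transgenes that their names give. OVOL1 was at 0.0238 FPKM in PC3-EMT14 and 11.3 in PC3-EMT14-OVOL1, and OVOL2 was at 0.370 in PC3-EMT14 and 831 in PC3-EMT14-OVOL2. In PC3-Epi, OVOL1 was at 4.25 FPKM and OVOL2 at 9.91, so each line exceeded the epithelial level of its transgene, OVOL2 by far more. ZEB1, a repressor of epithelial genes, was at 7.43 FPKM in PC3-EMT14 and 4.25 with OVOL1. In the other tables it stood at 7.36 against 1.77 with OVOL2 and at 7.59 against 0.130 in PC3-Epi. The summed FPKM of 6 epithelial markers was 892 in PC3-EMT14, 1024 with OVOL1 and 1585 with OVOL2, and 1756 in PC3-Epi. KRT19 made up 656 of the PC3-EMT14 sum and stood at 608 with OVOL1. CDH1, a small part of the sum, went from 0.981 to 16.2 FPKM in that comparison. In the last 3 lines, 3, 4 and 5 of the markers were at least 2-fold above PC3-EMT14. Of all genes over 1 FPKM in the higher line, 2.43%, 4.42% and 7.37% were. The sum of 5 mesenchymal markers was 330.0, 224, 107 and 89.9 in the order PC3-EMT14, OVOL1, OVOL2 and PC3-Epi. VIM made up 265 of the PC3-EMT14 sum. At least 2-fold lower were 0, 4 and 2 of them, where 1.54%, 2.93% and 8.34% of all genes were. SPARC was higher with OVOL1, at 4.92 FPKM against 4.23. FN1, CDH2 and SPARC were higher in PC3-Epi (33.8, 11.3 and 2.17 FPKM) than with OVOL2 (16.5, 10.1 and 1.68 FPKM), while VIM and ZEB1 were lower. Of 10 macrophage markers, 9 stood at or below 0.0991 FPKM in every line, C1QA and C1QB were listed at 0 throughout, and CD68 alone was above 1 FPKM, between 51.2 and 57.8 in the PC3-EMT14 lines and 13.2 in PC3-Epi. The part of these markers in the results below was not tested. In bulk libraries, a change in the number of cells that use a gene and a change in the RNA per cell cannot be told apart.

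ESRP1 was the member with the largest folds over PC3-EMT14, though by little with OVOL2, where LSR was 28.3-fold higher. It lies on chromosome 8 of hg19, from 95653364 to 95719694 (XLOC_020636). In the table against PC3-EMT14-OVOL1 it stood at 0.406 FPKM in PC3-EMT14 and 15.2 in the OVOL1 line, a 37.5-fold difference. In the table against PC3-EMT14-OVOL2 it was at 0.402 and 11.7 FPKM, 29.1-fold higher with OVOL2. Against PC3-Epi it was at 0.415 and 84.6 FPKM, 204-fold higher in the epithelial line. PC3-EMT14 was thus the only line below 1 FPKM, and the OVOL1 and OVOL2 lines reached 18.0% and 13.8% of the PC3-Epi level. Cuffdiff marked its estimate of ESRP1 as failed in both tables that hold the OVOL2 line, so the OVOL2 level carries that mark. In the table of the 2 OVOL lines, ESRP1 was at 15.1 FPKM with OVOL1 and 11.7 with OVOL2, 1.29-fold higher with OVOL1. GRHL2, another epithelial transcription factor, was at 0.104 FPKM in PC3-EMT14, 0.556 with OVOL1 and 0.544 with OVOL2, and at 15.0 in PC3-Epi. ZEB2, a relative of ZEB1, was at or below 0.145 FPKM in every line.

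ESRP2, the paralogue of ESRP1, was present in every line and differed less. It stood at 5.58 FPKM in PC3-EMT14 and 9.31 with OVOL1 (1.67-fold higher), and at 5.52 against 10.5 with OVOL2 (1.90-fold higher). In PC3-Epi it was at 16.9 FPKM against 5.70 in PC3-EMT14 (2.96-fold higher). The order PC3-EMT14, OVOL1, OVOL2, PC3-Epi was thus unlike that of ESRP1, in which the 2 OVOL lines were the other way round, by differences whose error is unknown and with the ESRP1 value of the OVOL2 line marked as failed. Per length, ESRP2 was the more abundant of the pair in PC3-EMT14, and ESRP1 was the more abundant in PC3-EMT14-OVOL1 and PC3-Epi. With OVOL2 they were at 11.7 FPKM for ESRP1, the value marked as failed, and 10.5 for ESRP2. The listed locus of ESRP2 (XLOC_008191, chromosome 16, 68119269 to 68270136) also spans NFATC3, which lies on the opposite strand. Whether reads were counted by strand is not given in the sources used here, so reads of the 2 genes may not be told apart. NFATC3 itself was at 4.64 FPKM in PC3-EMT14 and 4.37 with OVOL1, at 4.59 and 3.63 with OVOL2, and at 4.74 and 5.13 in PC3-Epi.

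**Figure D1:**
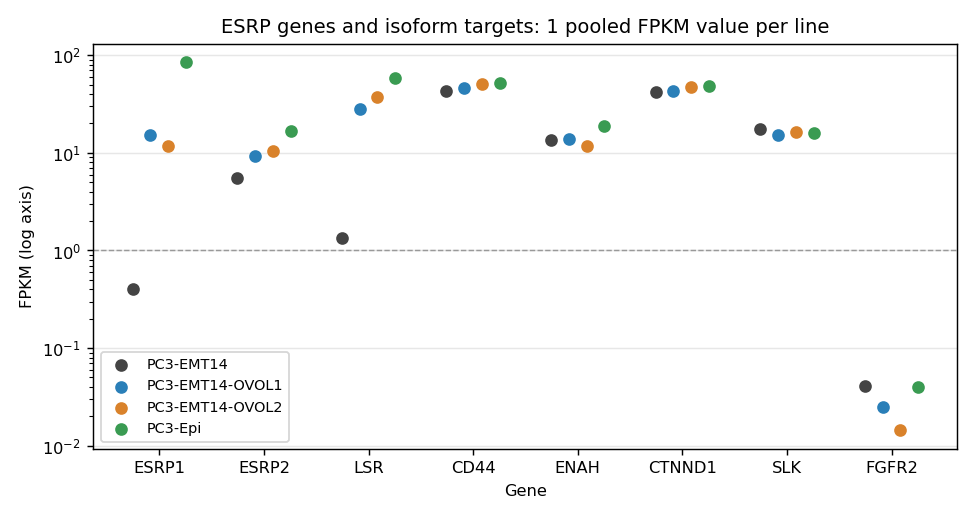
FPKM of each of the 8 genes (log axis) in the 4 PC3 lines, 1 pooled value per line as a point, with no error available; the dashed line marks 1 FPKM. ESRP1 runs from 0.406 to 84.6 FPKM and LSR from 1.35 to 58.1, while CD44, CTNND1, ENAH and SLK differ by less than 2-fold between lines and FGFR2 is below 0.05 FPKM throughout.

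LSR was the other member that was low in PC3-EMT14 and far higher in every other line. LSR (XLOC_010236, chromosome 19, 35739559 to 35758867) stood at 1.35 FPKM in PC3-EMT14 and 28.1 with OVOL1, a 20.8-fold difference. It was at 1.34 and 37.8 FPKM with OVOL2 (28.3-fold), and at 1.38 and 58.1 FPKM in PC3-Epi (42.1-fold). The OVOL lines held 48.4% and 65.1% of the PC3-Epi level, a larger share than for ESRP1.

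The remaining targets differed little in level. CD44 (XLOC_003242, chromosome 11, 35160417 to 35253949) stood at 42.6 FPKM in PC3-EMT14 and 45.9 with OVOL1, and the folds in the OVOL1, OVOL2 and PC3-Epi lines were 1.08, 1.20 and 1.19. ENAH (XLOC_002125, chromosome 1, 225674534 to 225840845) stood at 13.4 FPKM in PC3-EMT14, with folds of 1.04, 0.880 and 1.37. CTNND1 was at 42.2 FPKM, with folds of 1.02, 1.13 and 1.12, and SLK (XLOC_002555, chromosome 10, 105727470 to 105787342) at 17.7 FPKM, with folds of 0.869, 0.927 and 0.875. The gene entry of CTNND1 (XLOC_003333, chromosome 11, 57479995 to 57586652) is shared with TMX2, so its level here is the sum of its 13 isoform entries. FGFR2 (XLOC_003016, chromosome 10, 123237844 to 123357972) did not pass 0.0413 FPKM in any line, so its exon choice could not be read.

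Counted at a fold of 2 and at least 1 FPKM in the higher line, 7 of the 8 members passed the FPKM limit in each comparison. With OVOL1, 2 members (ESRP1 and LSR) were higher and 0 lower, where 2.43% of all 12197 genes over that limit were higher and 1.54% lower. With OVOL2 the same 2 members were higher and 0 lower, where 4.42% and 2.93% of 12307 genes were. In PC3-Epi, 3 members (ESRP1, ESRP2 and LSR) were higher and 0 lower, where 7.37% and 8.34% of 12441 genes were. Between the OVOL lines 0 members passed in either direction, where 1.9% of 12188 genes were higher and 1.17% lower with OVOL2. The 3 comparisons with PC3-EMT14 share its libraries.

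The shares of the CD44 isoform entries differed widely between lines while the level of the gene differed from PC3-EMT14 by 1.20-fold at most. Each share below is 1 entry's FPKM as a percentage of the summed FPKM of all entries of its gene in the same line. Entry TCONS_00005418 was at 40.0 FPKM in PC3-EMT14 and 28.4 with OVOL1. In the table with OVOL2 it was at 39.6 and 32.3 FPKM, and in that with PC3-Epi at 40.9 and 5.91. Its share was 93.9% in PC3-EMT14, 61.9% with OVOL1 and 63.9% with OVOL2, and 11.46% in PC3-Epi. It was the leading entry in the 3 PC3-EMT14 lines and not in PC3-Epi. The tables do not say which exons it holds.

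The 2 CD44 entries that could be tied to a known form were higher outside PC3-EMT14. Entry TCONS_00005417 matches NM_001001390, the 493-codon form with v8, v9 and v10. It stood at 2.13 FPKM in PC3-EMT14 and 12.9 with OVOL1, at 2.11 and 12.9 with OVOL2, and at 2.17 and 24.2 in PC3-Epi. These are folds of 6.07, 6.11 and 11.1, and its share was 4.99%, 28.1%, 25.4% and 46.9% from PC3-EMT14 to PC3-Epi. Entry TCONS_00005416 matches NM_001001389, the 699-codon form. It was at 0.393 and 4.21 FPKM with OVOL1, at 0.388 and 5.13 with OVOL2, and at 0.401 and 20.7 in PC3-Epi. Its share was 0.921%, 9.17%, 10.1% and 40.1%. In PC3-Epi the 2 variant entries stood near each other, whereas in both OVOL lines the 493-codon form was well above the 699-codon form. The 2 other CD44 entries, TCONS_00005415 and TCONS_00005419, held at most 1.57% in any line.

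ENAH has 2 entries, which differed between lines in opposite directions. Entry TCONS_00003514 matches NM_001008493, the 591-codon form that holds the 63-base exon printed above. It stood at 2.11 FPKM in PC3-EMT14 and 6.13 with OVOL1, at 2.08 and 4.82 with OVOL2, and at 2.15 and 12.4 in PC3-Epi. Its share was 15.7% in PC3-EMT14, 43.8% with OVOL1 and 41.2% with OVOL2, and 66.1% in PC3-Epi. The other entry, TCONS_00003515, was at 11.3 and 7.86 FPKM with OVOL1, at 11.2 and 6.86 with OVOL2, and at 11.54 and 6.36 in PC3-Epi. It was lower in each of the 3 lines than in PC3-EMT14, and PC3-Epi was the only line in which the 591-codon form led.

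CTNND1 has 13 entries, of which 5 had a lower share than in PC3-EMT14 in all 3 other lines, 4 a higher share, and 4 neither (3 of those were listed at 0 in every line). The 5 lower entries together held 43.2% in PC3-EMT14, 21.1% with OVOL1 and 18.0% with OVOL2, and 2.26% in PC3-Epi. The largest of them was TCONS_00005565, matched to NM_001085460, at 13.0 FPKM in PC3-EMT14 and 5.77 with OVOL1, at 12.9 and 5.42 with OVOL2, and at 13.3 and 0.263 in PC3-Epi. That is 50.6-fold lower in PC3-Epi than in PC3-EMT14. The 4 higher entries together went from 56.5% to 78.8%, 81.8% and 95.7%. Entry TCONS_00005573 led them, at 14.04 and 19.2 FPKM with OVOL1, at 13.9 and 22.4 with OVOL2, and at 14.3 and 29.8 in PC3-Epi. The entries were grouped by these shares, so the side of PC3-EMT14 on which each sum lay was set by the grouping. The sums of the lower and higher entries also nearly add up to the whole, so they are not separate results. The grouping did not set their place relative to PC3-Epi, and in both OVOL lines the sums shifted less than in PC3-Epi. Single entries did not all shift less than in PC3-Epi. TCONS_00005572 held 11.1% in PC3-EMT14, 15.1% with OVOL1 and 15.0% with OVOL2, and 14.4% in PC3-Epi.

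For LSR, entry TCONS_00016578 held 38.5% in PC3-EMT14, 18.1% with OVOL1 and 25.4% with OVOL2, and 19.4% in PC3-Epi, although all 3 entries of the gene were higher in FPKM than in PC3-EMT14. The PC3-EMT14 share rests on a gene total of 1.35 FPKM. ESRP1 has 5 entries, and TCONS_00033631 held 45.3% in PC3-EMT14, 21.2% with OVOL1 and 18.7% with OVOL2, and 21.1% in PC3-Epi. Its PC3-EMT14 total of 0.406 FPKM is under the limit of 1 FPKM used for counting shares. Cuffdiff marked all 5 ESRP1 entries as failed in both comparisons with the OVOL2 line. ESRP2 and SLK have 1 entry each, so they have no share. The cassette exon of SLK, which separates forms of 1235 and 1204 codons, is therefore not resolved in these tables.

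**Figure D2:**
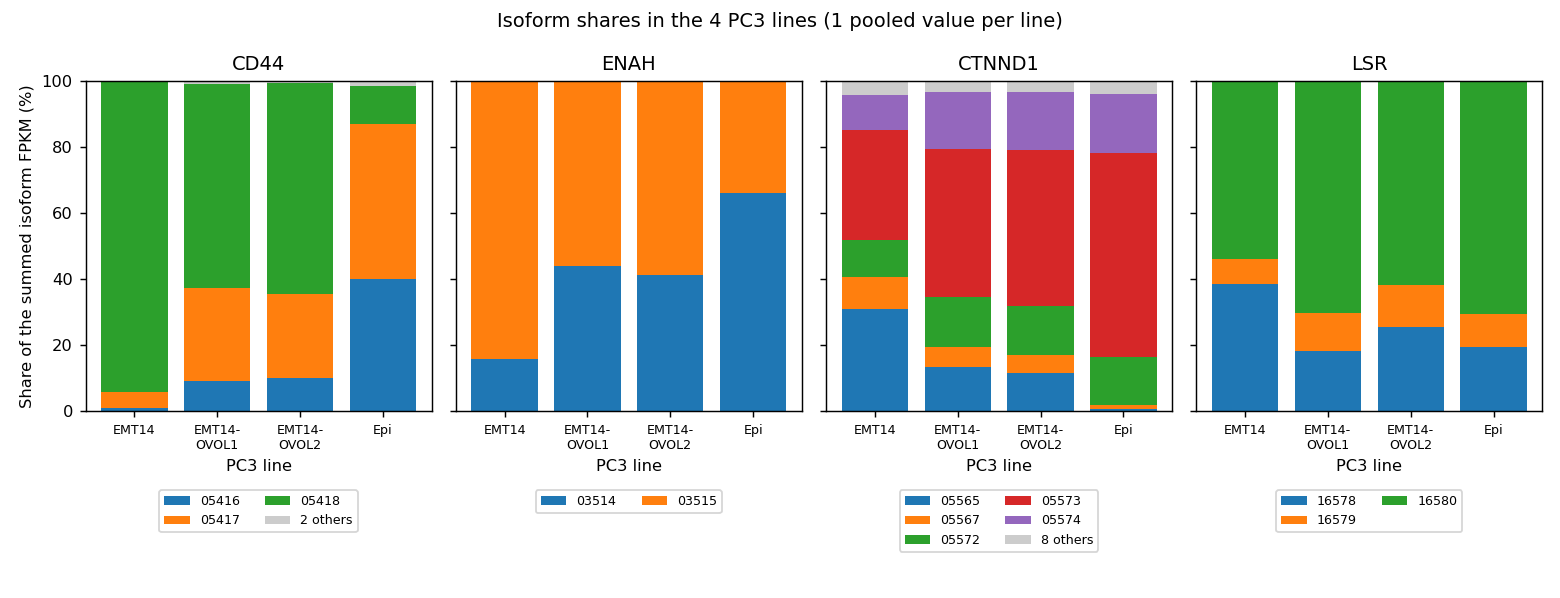
Share of each isoform entry in the summed FPKM of its gene (percent, 0 to 100) in the 4 PC3 lines for CD44, ENAH, CTNND1 and LSR, 1 pooled value per line; colours are entries named by the end of their TCONS number, and grey sums the entries that stay under 5% in every line. The CD44 entry TCONS_00005418 goes from 93.9% in PC3-EMT14 to 11.46% in PC3-Epi, with the OVOL lines at 61.9% and 63.9%.

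The following entries of CD44, ENAH and CTNND1 had shares in the OVOL lines between those of PC3-EMT14 and PC3-Epi. As a percentage of the shift seen in PC3-Epi, TCONS_00005418 of CD44 shifted by 38.9% with OVOL1 and 36.4% with OVOL2. TCONS_00003514 of ENAH shifted by 55.8% and 50.7%, and TCONS_00005565 of CTNND1 by 57.5% and 64.0%. The 2 CD44 variants were unlike each other in this, at 55.2% and 48.8% for the 493-codon form and 21.1% and 23.5% for the 699-codon form. Entries of other members did not all lie between. TCONS_00016578 of LSR shifted by 107% with OVOL1 and 68.4% with OVOL2. TCONS_00033635 of ESRP1, whose total in PC3-EMT14 is under 1 FPKM, shifted by 118% and 179%. The OVOL lines were close to each other, with largest share differences between them of 2.69 points for CD44, 2.59 for ENAH and 2.65 for CTNND1, where the median gene had 2.91. LSR and ESRP1 differed by 8.47 and 6.80 points, the latter from entries that Cuffdiff marked as failed.

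A shift of 10 percentage points or more in at least 1 entry was counted for genes with 2 or more entries and at least 1 FPKM in both lines. Of the 8 members 4 could be counted against PC3-EMT14 (CD44, CTNND1, ENAH and LSR). All 4 passed with OVOL1, where 10.9% of 4652 genes did, all 4 with OVOL2, where 17.2% did, and all 4 in PC3-Epi, where 19.1% of 4547 genes did. With the gene entry shared with TMX2 as denominator, the CTNND1 entry TCONS_00005565 shifted by -6.76 points with OVOL1 and -6.86 with OVOL2, under the limit, and by -11.3 points in PC3-Epi. Between the OVOL lines, 0 of 5 members passed, ESRP1 with its failed entries among them, where 13.9% of 4682 genes did. The study had itself singled out CD44, ENAH and CTNND1 for isoform changes on these samples, so their count is not independent evidence.

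CD44 stood furthest out. Its largest shift was 32.1 points with OVOL1 and 30.04 with OVOL2, and 82.5 in PC3-Epi, and 0.731%, 1.55% and 0.110% of genes had a shift at least as large. For ENAH these were 28.1, 25.5 and 50.4 points, reached by 0.946%, 2.54% and 0.638% of genes. For CTNND1 they were 17.5, 19.4 and 30.3 points, reached by 3.48%, 4.97% and 2.46%. LSR, at 20.4, 13.1 and 19.1 points, was matched by 2.36%, 11.2% and 6.66% of genes. The median gene shifted by 2.52, 3.27 and 3.49 points. Each of these is the largest shift over a gene's entries. CTNND1 has 13 entries, CD44 5, LSR 3 and ENAH 2, beside a median of 2 over all counted genes. The part of that difference was not tested.

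**Figure D3:**
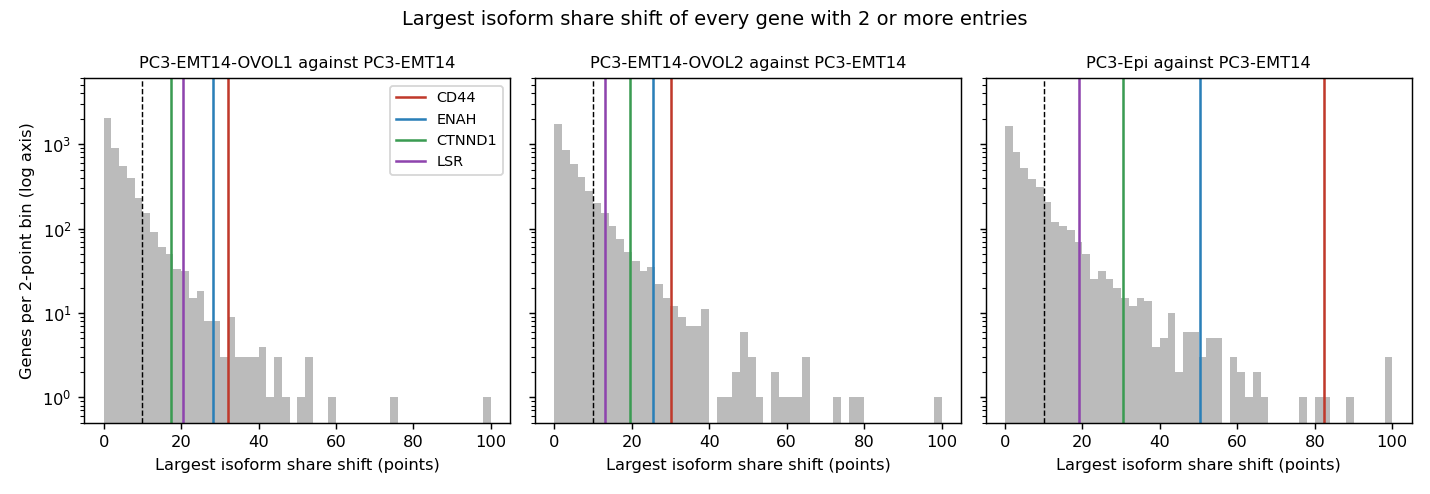
Number of genes (log axis) by their largest isoform share shift against PC3-EMT14, in bins of 2 percentage points, for genes with 2 or more entries and at least 1 FPKM in both lines; coloured lines mark 4 members and the dashed line 10 points. In PC3-Epi the CD44 line stands at 82.5 points, where 5 of 4547 genes, CD44 included, reached as far.

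Some of the other genes with exons known to respond to ESRP also passed 10 points. Of 13 such genes, 12 could be counted for shares. With OVOL1, 6 of 12 passed 10 points, with OVOL2 7 of 12 and in PC3-Epi 9 of 12. Of all counted genes, 10.9%, 17.2% and 19.1% did. The median largest shift of the list was 11.1, 12.7 and 30.1 points, where that of all counted genes was 2.52, 3.27 and 3.49. The 12 genes of the list had a median of 2.5 isoform entries against 2 over all counted genes, and the part of that difference was not tested.

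SLC37A2, a sugar phosphate transporter, had the largest shift in each comparison. Its entry TCONS_00006174 held 98.3% in PC3-EMT14, 51.6% with OVOL1 and 59.5% with OVOL2, and 0% in PC3-Epi. After it came FNIP1 (25.9 points) and ARHGEF11 (24.1) with OVOL1. With OVOL2 the next were the oxysterol-binding protein OSBPL3 (23.6) and the kinase MAP3K7 (22.03), and in PC3-Epi OSBPL3 (51.0) and ARHGAP17 (44.5). These sizes and the counts above are without sign, and an entry could differ in direction between lines. In the ribosomal protein gene RPS24, picked after its values were seen, 1 entry shifted by 43.1 points in PC3-Epi. The same entry shifted by -4.42 points with OVOL1 and -0.189 with OVOL2. An entry of ARHGEF11 shifted more in the OVOL lines, by -24.1 and -12.9 points, than in PC3-Epi, by -7.64 points.

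**Figure D4:**
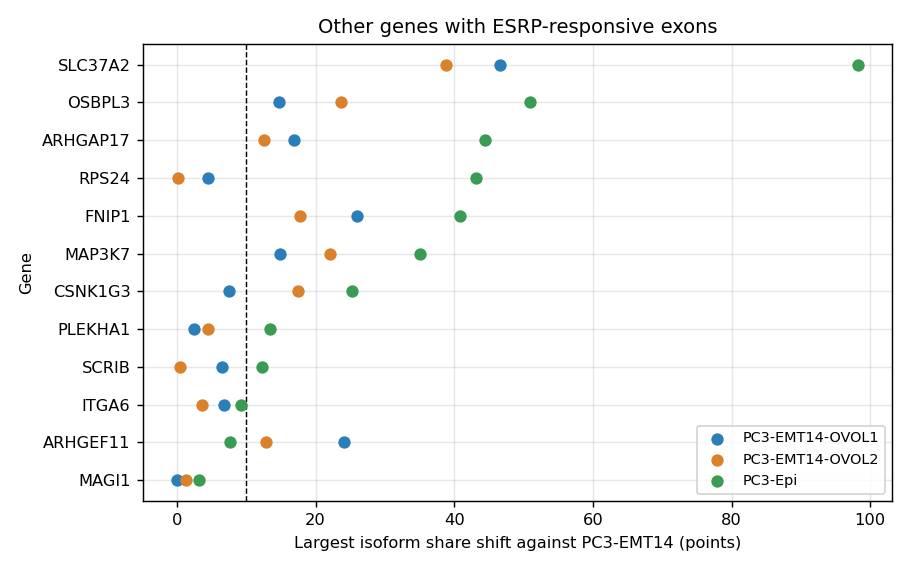
Largest isoform share shift against PC3-EMT14 (percentage points) of 12 other genes with ESRP-responsive exons, 1 point per line; the dashed line marks 10 points. SLC37A2 reaches 46.7, 38.8 and 98.3 points, and RPS24 is among the genes that pass 10 points in PC3-Epi alone.

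In level, few of these 13 genes differed by 2-fold. With OVOL1 0 were higher, where 2.43% of all genes were, and 0 lower, where 1.54% were. With OVOL2, where 4.42% of all genes were higher and 2.93% lower, 1 was higher, SLC37A2 (3.63 against 7.84 FPKM), and 0 lower. In PC3-Epi, where 7.37% were higher and 8.34% lower, 1 was higher, the polarity gene SCRIB (35.2 against 254 FPKM), and 0 lower. The median log2 fold of the list was -0.0055, -0.17 and -0.26, beside -0.0017, -0.040 and -0.014 over all genes.

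Of 19 other splicing regulators, 18 were found (PTBP3 was not matched by name), and 14, 14 and 15 of them were over the FPKM limit in the OVOL1, OVOL2 and PC3-Epi lines. The numbers at least 2-fold higher were 0, 1 and 2, and 0 were lower in any of the 3, where 2.43%, 4.42% and 7.37% of all genes were higher and 1.54%, 2.93% and 8.34% lower. RBM47, an RNA-binding protein of epithelial cells, was at 1.09 and 1.95 FPKM with OVOL1, at 1.08 and 3.72 with OVOL2, and at 1.12 and 11.8 in PC3-Epi. It was 1.78-fold, 3.43-fold and 10.5-fold higher. MBNL3 was at 0.409 FPKM in PC3-EMT14 and 1.10 in PC3-Epi, 2.69-fold higher. In isoform shares, 1, 4 and 5 of the 11 regulators that could be counted passed 10 points, where 10.9%, 17.2% and 19.1% of all genes did. RBM47 was higher with OVOL2 than with OVOL1.

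The genes nearest to ESRP1 over the 4 lines were found among 12445 genes by the distance between centred log2 FPKM values. They were S100A14, an S100 calcium-binding protein, STEAP4, a metalloreductase, NPNT, an extracellular matrix protein, LOC642587 and TC2N. The distances ran from 0.445 to 1.08 log2 units. S100A14 was at 1.30 FPKM in PC3-EMT14, 49.9 with OVOL1 and 51.4 with OVOL2, and 372 in PC3-Epi. The nearest to ESRP2 were DDN, CMTM4, ZNF726, C8orf73 and IL1R1, at 0.0649 to 0.136 log2 units. DDN was at 0.776, 1.32, 1.48 and 2.49 FPKM in the same order. A likeness over 4 values is a weak description, and the ESRP1 value of the OVOL2 line carries the failed mark.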

How the data were processed

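Groups of the 10 RNA-seq samples came from the sample labels. The authors used TopHat to align paired-end reads to hg19 transcripts and Cuffdiff to compare lines, with upper-quartile normalization and corrections for sequence bias and for reads that map to several places. They deposited 8 tables, for genes and for isoforms, over 4 comparisons. The deposited FPKM are 1 pooled value per line, so depth per sample is unknown and no test, SD, interval or floor of detection was computed. Isoform FPKM were apportioned by Cuffdiff from short reads. The tables also hold the authors' fold changes, test statistics, p and q values, which were not used. The number of unused columns of values per sample is 0.

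Folds are ratios of the 2 FPKM values of 1 table, without a pseudocount, and shares use the summed isoform entries. A fold was counted at 2 or more with at least 1 FPKM in the higher line, and a share at a shift of 10 points or more with at least 1 FPKM in both lines. A line estimated in another table differed by a constant scale (median ratios 0.990, 1.02, 0.989 and 1.00). Member shares differed by at most 0.011 points, or 0.061 points for FGFR2, so the tables are not independent estimates. Entries carry no exon structure. 4 were matched to accessions that the study lists, by gene and FPKM at 2 significant digits, for identity only. Exons came from GENCODE release 44 on GRCh37. The steps were tested on simulated data and run with pandas 2.3.3, numpy 2.4.6 and matplotlib 3.10.9 under Python 3.11.15.

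Every member is named, and from other lists at most the 3 genes with the largest fold or shift per comparison and direction. 1 gene of the list with ESRP-responsive exons is not reported here and is left out of its counts. The members and lists were chosen with earlier results of these data known. Alternatives covered pseudocounts, filters, thresholds and denominators.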

Additional observations from a re-analysis of the deposited data

How the results depend on the processing

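With no values per sample, a result was taken as unchanged when it stayed within 1.5 times of its reported value. Of 142 alternative values for 39 results, 115 did so and 27 moved, and 0 turned direction. These counts do not measure robustness, because many alternatives could change little. Adding FPKM to both values cannot turn a fold. Isoform sums nearly equal unshared gene entries, and values from another comparison rest on the same libraries. Counts of genes have no direction. For other results, direction was judged only for folds of at least 2 or shifts of at least 10 points. Adding 1 FPKM to both values lowered the folds of the members that were low in PC3-EMT14, for ESRP1 to 11.55 with OVOL1 and 9.05 with OVOL2, and 60.5 in PC3-Epi, and for LSR to 12.4, 16.6 and 24.8. With the gene entry shared with TMX2 as denominator, the CTNND1 entry TCONS_00005565 shifted by -6.76, -6.86 and -11.3 points, the first 2 of them under 10 points. The alternative gene entry for the CTNND1 fold was chosen after seeing the data. The number of genes past 2-fold in either direction was 3383, 3981 and 5788 for the OVOL1, OVOL2 and PC3-Epi lines without a filter on FPKM, and 1033, 1570 and 3067 at a minimum of 0.1 FPKM. It was 1073, 1851 and 3915 at 1.5-fold, and 213, 336 and 803 at 4-fold. The number of genes with a share shift was 117, 216 and 269 at 20 points, and 249, 476 and 496 with at least 5 FPKM in both lines. No paired analysis was possible because each line has 1 pooled value, and for the same reason no replicate could be left out. The unknown depth limits ESRP1 and LSR in PC3-EMT14 and FGFR2 in every line.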
